A study of Mus musculus with 60 samples.

Results

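The comparison set 6 nuclear transfer (NT) morulas, 3 made with cumulus cell (CC) nuclei (NTC) and 3 with mouse embryonic fibroblast (MEF) nuclei (NTM), against 3 in vivo morulas, across genes on the autosomes. It used 9 of the 60 single-embryo RNA-seq libraries of the series. Of 27238 genes in the table, 25848 lay on autosomes and 8892 of these had a mean of at least 0.5 RPKM (reads scaled to transcript length and to library depth) over the 9 libraries and were tested. In vivo embryos came from superovulated C57BL/6 females mated with DBA2 males. NTC and NTM embryos were built from enucleated oocytes of superovulated BDF1 (C57BL/6 × DBA2) females. The CCs were collected with those oocytes, and the MEFs were cultured from BDF1 fetuses. Reconstructed embryos were activated with SrCl2 in the presence of cytochalasin B and Scriptaid, a histone deacetylase inhibitor, and were cultured in vitro. The nuclear genome was therefore of the BDF1 type in all 3 groups, while nuclear transfer, oocyte donor, activation, Scriptaid and in vitro culture all separated NT from in vivo embryos and cannot be told apart. Each library was 1 embryo chosen by its morphology, so the number of cells it held was not recorded in the values, and for every result below more cells of a kind and more RNA per cell cannot be told apart.

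The morula is the stage at which blastomeres compact, polarize and begin to separate into outer cells, which become trophectoderm, and inner cells, which become the inner cell mass. In NT embryos the somatic nucleus has to give up the expression programme of its donor cell and take up the embryonic one within a few divisions. Stress responses, imprinted genes and genes silenced by DNA or histone methylation in the donor are the groups most often examined in such embryos.

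The libraries were checked first. Reads on genes, recovered from the steps of the deposited values, ranged from 12705800 to 26281500 (13671400 to 19057900 in vivo). The morula markers Pou5f1, Nanog, Gata3, Tfap2c, Dppa3, Krt18 and Zfp42 were above 3 RPKM in all 9 libraries. Cdx2 was as well, except that it was 0 in NTC replicate 2. Krt8 and Cdh1 were under 3 RPKM in in vivo replicate 1 and NTM replicate 2, and Tead4 in in vivo replicates 1 and 2. The lowest of these values was that of Krt8 in in vivo replicate 1, 0.378 RPKM. None of the 11 morula markers tested was called. Sox2 was 0 in all 6 NT libraries and 0.284 to 1.43 RPKM in vivo, and was not tested. Of the donor markers, the fibroblast genes Col3a1 and Thy1 (means of 1820 and 61.1 RPKM in MEFs) were 0 in all 9 libraries. Postn, Col1a2, Twist1 and Col1a1 were 0 in vivo but not in every NT library. Postn reached 1.40 RPKM in NTM replicate 3. Col1a2, Twist1 and Col1a1 reached 0.855, 0.390 and 0.0240 RPKM in NTM replicate 1. The cumulus marker Foxl2 (0.553 RPKM in CCs) was 1.27 RPKM in NTM replicate 1 and 0 in the other morula libraries. Cyp11a1 and Star, at 458 and 91.8 RPKM in CCs, reached at most 0.0396 and 1.84 RPKM, while Has2 and Cyp19a1 were 0 in the CCs as well and tell nothing. Of the longer lists of 20 cumulus and 24 fibroblast genes only 2 and 3 were tested and none was called. Serpine2, at 701 RPKM in CCs, reached 13.4 RPKM in NTC replicate 2 and 7.80 RPKM in vivo, and the summed cumulus list was 4.43 to 19.4 RPKM in NTC, 3.52 to 7.60 in NTM and 1.88 to 7.80 in vivo. The summed fibroblast list was 0.412 to 5.06 RPKM in NT and 0.0640 to 5.30 in vivo. The part of donor RNA in the results was not tested. Mitochondrial-genome genes took 43.5% to 72.9% of the summed RPKM in NT and 46.0%, 48.7% and 78.3% in vivo. No library measure passed a test of NT against in vivo (lowest two-sided exact permutation p = 0.119, adjusted 0.595 over 5 measures). The smallest possible p was 0.0238, so a single measure could not have passed after adjustment even without overlap. The groups cannot be called alike from this test. Y-linked Ddx3y reached 1 RPKM in 2 in vivo, 0 NTC and 1 NTM libraries and X-linked Xist in 0, 3 and 2. The sexes were thus unevenly spread over the groups, and results are given for autosomes.

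Between NT and in vivo morulas 38 autosomal genes, 0.427% of those tested, were called, that is, had an adjusted p under 0.05 in limma and a difference in mean log2(RPKM + 1) of at least 1. Of these 24 (0.27%) were higher and 14 (0.157%) lower in NT morulas. The largest differences were those of Gm5662, Gm13394, Nab1, Gm2016, Areg and Pmaip1 among genes higher, and of Cthrc1, Apoa1, Faiml, BC048679, Zfp955a and Zfp985 among genes lower. All differences below are NT minus in vivo on the log2(RPKM + 1) scale, which understates the change of genes with low values. Differences of the 24 ran from 1.80 to 5.17 and of the 14 from -1.68 to -5.08. The median over all tested autosomal genes was 0.09, and 988 had an unadjusted p under 0.05. For all 38 genes no NT library overlapped an in vivo library, which was so for 578 (6.5%) of the tested genes. The calls depended strongly on single libraries. Leaving out in vivo replicate 2 gave 4 calls, 3 of them among the 38. Leaving out NTM replicate 2 gave 21 calls, 17 of them among the 38, and the other 7 gave counts in between. Without in vivo replicate 1 there were 20 calls, 10 of them among the 38. Of the 38 genes 2 stayed called in all 9 of these fits, 6 in at least 7, and 12 in none.

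**Figure D1:**
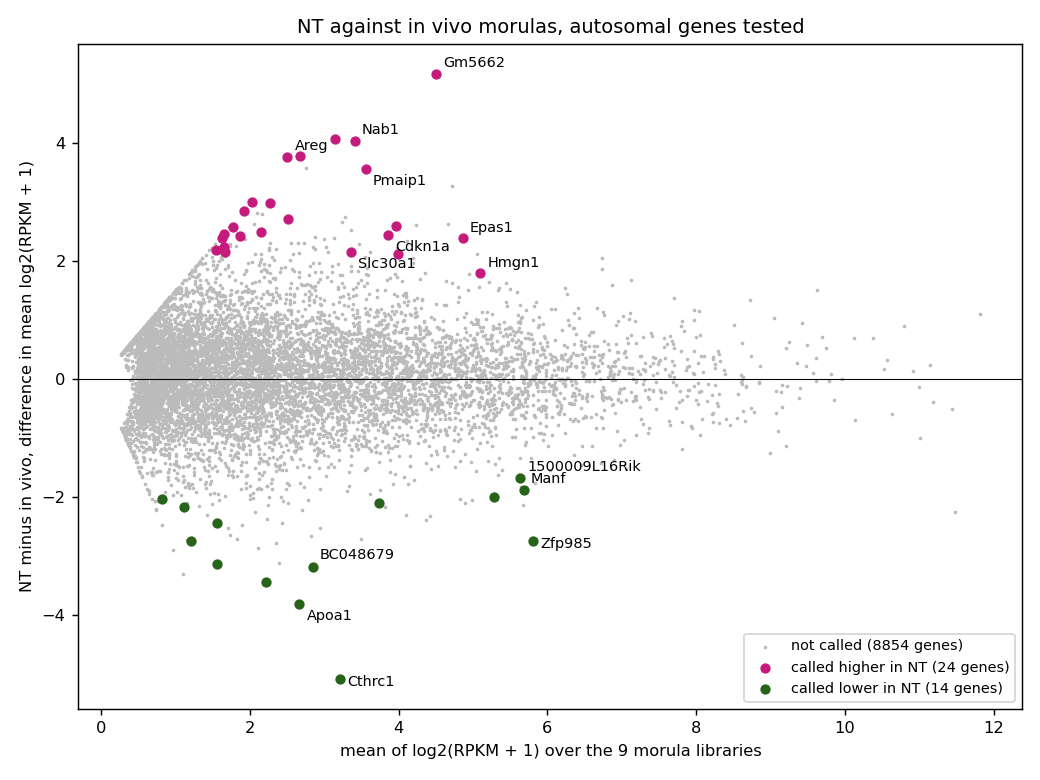
Difference between NT and in vivo morulas (vertical axis, mean log2(RPKM + 1) of 6 NT libraries minus that of 3 in vivo libraries) against the mean over all 9 libraries (horizontal axis) for 8892 autosomal genes. The 24 genes called higher and the 14 called lower are coloured and lie at the edges of the cloud, and genes of like size near them did not pass the test.

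Nab1, a co-regulator that binds EGR transcription factors (chromosome 1, 52457294 to 52500679 in the GRCm38 annotation), was 0.282, 0.316 and 1.66 RPKM in the 3 in vivo morulas. In the 6 NT morulas its lowest, median and highest values were 12.8, 27.1 and 52.0 RPKM. The NT libraries lay far above all in vivo libraries, with a difference of 4.03 ± 0.52 (SE; limma adjusted p = 0.00288). Nab1 was one of 2 genes, with Cthrc1, that stayed called whichever of the 9 libraries was left out.

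Areg encodes amphiregulin, a ligand of the EGF receptor (chromosome 5, 91139599 to 91148432). Areg was 0 in all 3 in vivo morulas and 4.84, 14.3 and 32.6 RPKM (lowest, median, highest) in NT. Against the 0.181 RPKM that 3 reads give in the shallowest in vivo library, the mean NT level of 15.6 ± 10.9 RPKM (SD, n = 6) was at least 86.1-fold higher (limma adjusted p = 0.0158), and the call held with 8 of the 9 libraries left out in turn. Both donor cell types had a mean of 0 RPKM. Over all tested autosomal genes 0.27% were called higher. Of 19 autosomal EGF ligands, receptors and shedding factors 5 were tested, and Areg alone was called. The others were the receptor Erbb3, the proteases Adam10 and Adam17 that release such ligands from the cell surface, and Rhbdf2, which carries Adam17 to the surface. Adam10 had a difference of -1.65 ± 0.58 (adjusted p = 0.248), and those of the other 3 lay between -0.32 and 0.38.

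Genes of the p53 pathway, which links DNA damage and other stress to cell cycle arrest and cell death, stood among the higher genes. Pmaip1 (Noxa), a BH3-only protein of the apoptosis pathway, was 5.29, 0.335 and 0.415 RPKM in vivo and 12.4, 23.9 and 73.3 RPKM (lowest, median, highest) in NT. Cdkn1a (p21), an inhibitor of cyclin-dependent kinases, was 4.08, 1.63 and 6.71 RPKM in vivo and 13.9, 23.0 and 43.1 RPKM in NT. In both genes the lowest NT library was more than 2 times the highest in vivo library. Their differences were 3.55 ± 0.64 (adjusted p = 0.0305) and 2.44 ± 0.47 (adjusted p = 0.0381), and they stayed called in 4 and 2 of the 9 fits that left out 1 library. Of 23 tested p53 targets these 2 were called, where 0.27% of all autosomal genes were called higher. Positive differences were found in 18, where 55.0% of all genes had them. In 9 (39.1% of the 23) the difference was positive with an unadjusted p under 0.05, against 6.12% of all autosomal genes. The median of the list was 0.99. It was 0.67 over the 20 genes with a mean of at least 0.5 RPKM in both groups, where all such genes had 0.02. The other 3 reached that mean in NT alone. The list was drawn up with earlier results of these data known. Further members, chosen after their values were seen, were the cyclin Ccng1 with 2.05 (adjusted p = 0.0646) and Mdm2, the ubiquitin ligase of p53, with 1.83 (adjusted p = 0.116). Without in vivo replicate 1 the median of the list was 0.34, where that of all genes was -0.13. It was 1.42 for NTC and 0.44 for NTM morulas against the same in vivo libraries, where all genes had 0.26 and -0.11.

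The small heat shock proteins Hspb1 and Cryab, chaperones that hold unfolded proteins, were higher as well. Hspb1 was 0, 0 and 0.0709 RPKM in vivo, the last being under the 0.213 RPKM that 3 reads give, and 2.44, 5.06 and 18.0 RPKM in NT. Cryab was 0.177, 0 and 0.432 RPKM in vivo and 1.99, 5.56 and 10.5 RPKM in NT. Their differences were 2.84 ± 0.55 (adjusted p = 0.0381) and 2.42 ± 0.50 (adjusted p = 0.0468). Hspb1 stayed called in 1 of the 9 fits that left out 1 library and Cryab in 0, and Hspb1 has near-identical pseudogenes with which reads may be shared. Of 25 tested heat shock genes these 2 were called and 18 (72.0%) had positive differences, with a list median of 0.55, where 0.27% of all genes were called higher, 55.0% were positive and the median was 0.09. The list did not move as one. Its median was 0.37 over the 21 genes with a mean of at least 0.5 RPKM in both groups, where all such genes had 0.02. It was -0.20 without in vivo replicate 1. Against the same in vivo libraries it was -0.08 for NTM and 1.02 for NTC morulas, where all genes had -0.11 and 0.26. Hsp90aa1, the most abundant chaperone of the list (chosen after its values were seen), was 515 RPKM in in vivo replicate 1 against 4742 and 4079 RPKM in the others.

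The promoters of Areg and Hspb1 are shown because the former gene was silent in every in vivo morula and the latter carries the textbook element of its pathway. Both are the 250 bases before the gene start from RefSeq (GRCm38.p6, plus strand), at chr5:91139349-91139598 and chr5:135887669-135887918. Capitals mark a cyclic AMP response element (TGACGTCA) and a TATA box (TATAAA) in Areg, and paired heat shock half-sites (GAANNTTC) in Hspb1.
Areg: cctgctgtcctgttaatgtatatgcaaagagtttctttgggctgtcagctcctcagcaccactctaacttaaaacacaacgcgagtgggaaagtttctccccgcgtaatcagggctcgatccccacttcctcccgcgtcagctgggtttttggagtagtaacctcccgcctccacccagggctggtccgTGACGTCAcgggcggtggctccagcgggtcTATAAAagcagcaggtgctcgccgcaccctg
Hspb1: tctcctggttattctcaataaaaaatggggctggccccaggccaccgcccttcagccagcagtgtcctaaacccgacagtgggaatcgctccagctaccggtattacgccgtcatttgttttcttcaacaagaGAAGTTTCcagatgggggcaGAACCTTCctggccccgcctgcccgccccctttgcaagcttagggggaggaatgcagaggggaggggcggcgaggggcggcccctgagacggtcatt
Searched on both strands, TGACGTCA stood in 1.55% of 32851 promoters of this length, TATAAA in 12.4% and GAANNTTC in 6.69%, with 2 or more GAANNTTC in 0.228%. Of the 24 called genes with a promoter in the table, 1 held TGACGTCA, 1 TATAAA and 1 GAANNTTC. These matches describe the letters of the reference and are not evidence of a bound factor.

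Among the other genes called higher, Epas1 encodes HIF-2α, a transcription factor stabilized at low oxygen, and was on the list of genes imprinted through maternal H3K27me3, which are expressed mainly from the paternal allele in normal embryos. It was 5.73, 8.26 and 13.3 RPKM in vivo and 31.8, 49.8 and 93.1 RPKM in NT, with a difference of 2.39 ± 0.43 (adjusted p = 0.0305). Of the 7 tested genes of that list all had positive differences, where 55.0% of all genes did. Bmp7, 1 of the 7, was 0 in all 3 in vivo libraries and could only be positive. The other 6 had a mean of at least 0.5 RPKM in both groups and a median of 1.17, where all such genes had 0.02. The list median was 0.99, against 0.09 for all genes, and ran from 0.84 to 1.61 when single libraries were left out. Epas1 alone was called, where 0.27% of all genes were called higher. Bbx had 1.73 (limma adjusted p = 0.0616) and Gab1 1.34 (adjusted p = 0.228). The values do not separate the parental alleles.

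Slc30a1, the zinc exporter ZnT1, was 3.32, 2.15 and 3.03 RPKM in vivo and 11.6, 16.5 and 19.3 RPKM in NT, with every NT library above all in vivo libraries. Its difference was 2.15 ± 0.39 (adjusted p = 0.0305). It was the 1 called member of 28 tested oxidative and metal stress genes, of which 21 (75.0%) had positive differences, where 0.27% of all genes were called higher and 55.0% were positive. At an unadjusted p under 0.05, 7 of the 28 had positive and 2 negative differences. Slc30a1 stayed called in 2 of the 9 fits that left out 1 library and Epas1 in 3. Hmgn1, a protein that binds nucleosomes and loosens chromatin, was 9.92, 14.4 and 18.8 RPKM in vivo and 42.2, 51.3 and 56.6 RPKM in NT (difference 1.80 ± 0.36, adjusted p = 0.0402), a call lost whichever library was left out. The betaine transporter Slc6a12 (difference 2.39), the phosphatidate phosphatase Lpin1 (2.19), the mannosyltransferase Alg3 of the glycosylation pathway (2.45), the ubiquitin ligase Wwp1 (2.16), the deubiquitinase Usp38 (2.12), the interferon-induced Ifi27 (2.23) and the non-coding RNA Lncenc1 of embryonic stem cells (difference 3.0) were also called. Hmgn1 and the last group, other than Lncenc1, were named after their values were seen. In 6 of the 24 genes called higher (Areg among them) every in vivo library was at or under what 3 reads give, so the size of those differences depends on the pseudocount.

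**Figure D2:**
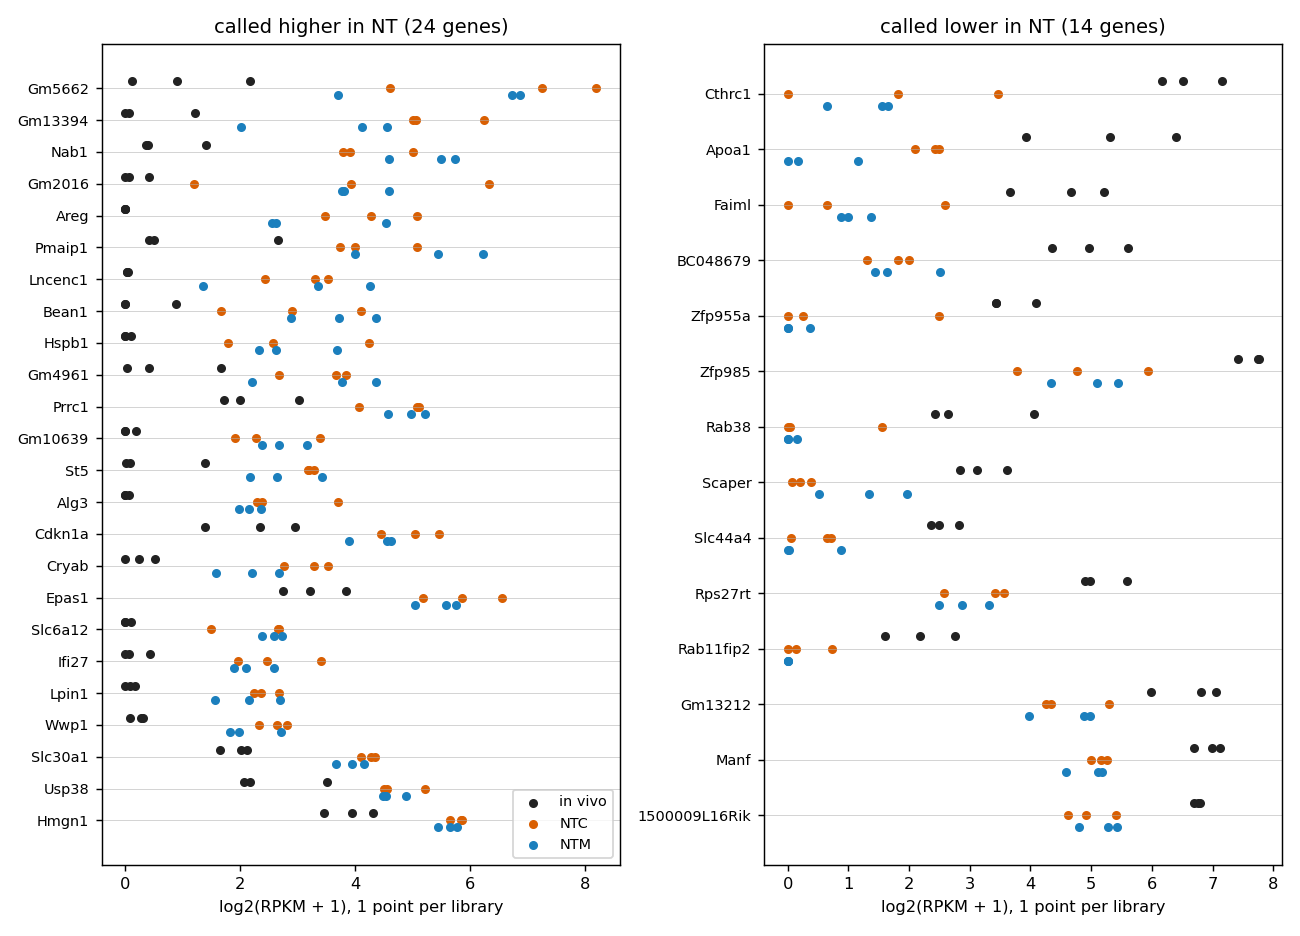
Values of the 38 called autosomal genes in each morula library, as log2(RPKM + 1) (horizontal axis, 1 point per library), in vivo in black, NTC in orange and NTM in blue. In each of the 38 genes the 3 in vivo points lie apart from the 6 NT points, while the NTC and NTM points interleave in most rows.

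Several of the called genes have near-identical copies among which reads may have been shared out, so their own levels are uncertain. This was so for 7 of the 38 genes (at least 95% identity over at least 50% of the longest transcript). Gm5662 and Gm2016, with differences of 5.17 and 3.78, were copies of each other and may be 1 signal. Gm5662 was 0.856, 3.49 and 0.0795 RPKM in vivo and 11.9, 110 and 292 RPKM in NT. Gm13394 (4.07) is a pseudogene of Gapdh, a glycolytic enzyme, with 72 near-identical genes, and Gapdh itself had 3.26 ± 0.79 (adjusted p = 0.0865). Hspb1 has the pseudogenes Hsp25-ps1 and Gm9817, and Zfp955a was matched over its whole length by Zfp955b. Gm10639 resembled Gsta1 and Gsta2, glutathione transferases. Rps27rt, a retrocopy of the ribosomal protein gene Rps27, fell with a difference of -2.11, where Rps27 had -1.77 (limma adjusted p = 0.0571). The call of Rps27rt was lost whichever library was left out. In a further 9 genes, Cdkn1a, Cryab and Slc30a1 among them, exons overlapped a gene on the opposite strand, and use of strand in the counting was not stated in the sources used here.

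Among the genes lower in NT morulas, Cthrc1 had the largest difference. Cthrc1, a secreted collagen triple helix repeat protein (chromosome 15, 39076932 to 39087121), was 70.5, 141 and 89.9 RPKM in vivo and 0, 2.03 and 10.1 RPKM (lowest, median, highest) in NT. The mean fell from 100.4 ± 36.3 (SD, n = 3) to 2.87 ± 3.66 RPKM (n = 6), a difference of -5.08 ± 0.62 (limma adjusted p = 0.00288). Apoa1, the main protein of high density lipoprotein, was 14.2, 83.2 and 38.8 RPKM in vivo and at most 4.64 RPKM in NT (difference -3.82 ± 0.68, adjusted p = 0.0305). Faiml, a relative of the Fas apoptosis inhibitor Faim, was 24.5, 36.2 and 11.6 RPKM in vivo and at most 5.01 RPKM in NT (-3.44 ± 0.57, adjusted p = 0.0215). BC048679 was 19.3, 30.3 and 47.5 RPKM in vivo and at most 4.67 RPKM in NT (-3.19 ± 0.45, adjusted p = 0.00724), a call that held with 8 of the 9 libraries left out in turn.

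Manf, a secreted factor induced by stress of the endoplasmic reticulum and named here, like 1500009L16Rik, after its values were seen, was lower in NT. It was 103, 139 and 126 RPKM in vivo and 22.9, 34.3 and 37.3 RPKM in NT, a difference of -1.88 ± 0.34 (limma adjusted p = 0.031). Manf stayed called in 2 of the 9 fits that left out 1 library. The chaperone Hspa5 of the same compartment was 16.9, 201 and 178 RPKM in vivo and at most 48.2 RPKM in NT, overlapping through in vivo replicate 1 (-1.64 ± 0.70, adjusted p = 0.375). Of 33 tested genes of the ATF4 and unfolded protein response none was called (2 at an unadjusted p under 0.05), and Manf was not on that list. Exons of Manf overlap those of 3 other genes in the annotation. Rab38 and Rab11fip2, both of vesicle transport, the choline transporter-like Slc44a4, Scaper and Zfp955a fell to medians of 0.366 RPKM or less in NT, and 1500009L16Rik fell from 107 ± 4.2 to 33.4 ± 7.8 RPKM.

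Zfp985 and Gm13212 belong to a cluster of Krüppel-associated box zinc finger genes on chromosome 4, a family of DNA-binding repressors many of which silence transposable elements. Zfp985 was 170, 215 and 216 RPKM in vivo and 12.7, 29.7 and 60.2 RPKM in NT (difference -2.75 ± 0.45, adjusted p = 0.0215). Gm13212 was 132, 62.4 and 112 RPKM in vivo and 14.7, 23.8 and 38.1 RPKM in NT (-2.0 ± 0.41, limma adjusted p = 0.0468). Zfp985 stayed called in 7 of the 9 fits that left out 1 library and Gm13212 in 0. Gm13212 was also called in only 6 of 13 other alternatives. The stretch from 145446740 to 147848366, chosen after these values were seen and so given without a test, held 28 tested genes. Of these 19 had negative differences, where 45.0% of all tested autosomal genes did. For 12 of them the unadjusted p was under 0.05, where 4.99% of all genes were negative at that p. The median was -0.86 against 0.09 for all genes. Zfp979, next to Zfp985, was 154, 134 and 121 RPKM in vivo and at most 53.5 RPKM in NT, just missing the threshold with -2.13 (adjusted p = 0.0506). Not every gene of the cluster was lower, as Gm13230 had 3.57 (adjusted p = 0.0571) and Zfp990, Zfp992 and Zfp991 lay between -0.24 and 0.06. In 8-cell embryos, which are separate embryos, 8 of 24 tested genes of the stretch were called lower and none higher, with a median of -1.41. Of all genes tested at that stage 0.653% were called lower, and their median was 0.44. In blastulas 3 of 22 genes of the stretch were called lower and the median was -0.06, against 2.23% and 0.79 for all genes. Members of this family are alike in sequence, and reads may be shared among them.

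**Figure D3:**
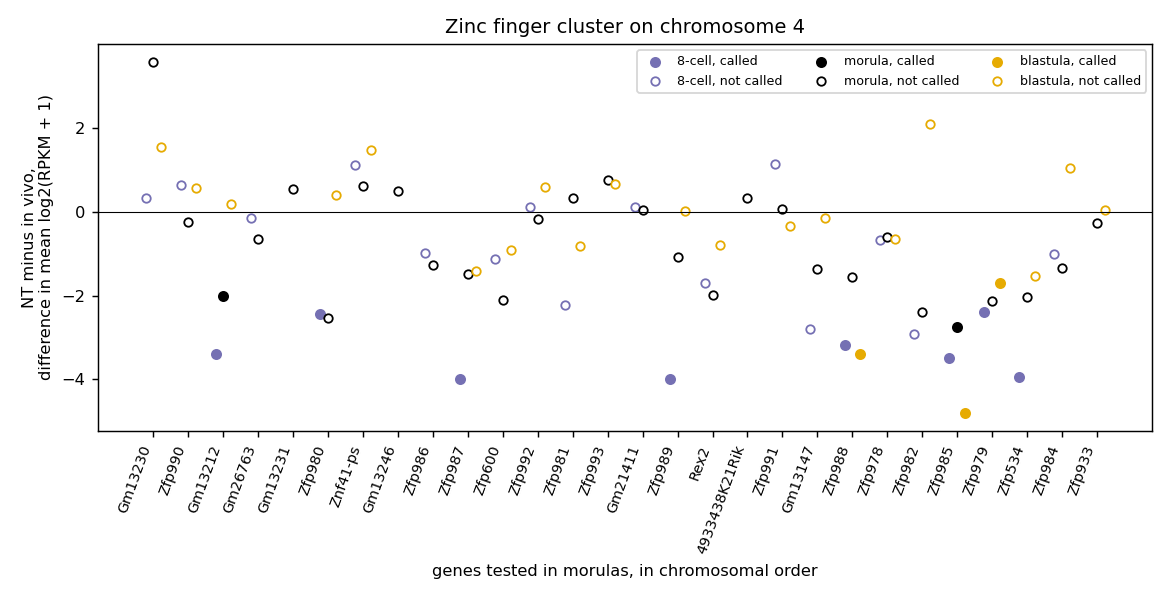
Differences between NT and in vivo embryos (vertical axis, mean log2(RPKM + 1)) for the 28 tested genes of the chromosome 4 zinc finger cluster in chromosomal order (horizontal axis), at the 8-cell, morula and blastula stages, with called genes filled. Most 8-cell and morula points lie under 0, 8 and 2 of them called, and the blastula points scatter around 0 apart from 3 called lower.

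The 38 genes were then followed in 8-cell embryos and blastulas, which are other embryos compared in the same way and share no library with the morulas. At the 8-cell stage 220 of 9184 genes (2.4%) were called, 160 higher (1.74%) and 60 lower (0.653%). Of the 24 genes higher in NT morulas 23 had positive differences there, where 68.1% of all genes did, and 7 were called higher. Of the 14 lower genes 11 had negative differences, where 31.9% of all genes did, and 4 were called lower. Their medians were 1.89 and -1.52 against 0.44 for all genes. The 11 genes called at both stages, all in the same direction, were 28.9% of the morula calls and 5.0% of the 8-cell calls.

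At the blastula stage 1960 of 9424 genes (20.8%) were called, 1750 higher (18.6%) and 210 lower (2.23%). All 24 higher genes had positive differences, as did 75.5% of all genes, and 15 were called higher. Of the 14 lower genes 13 were tested and 5 had negative differences, where 24.5% of all genes did. The median of the 13 was 0.17 against 0.79 for all genes, and 4 were called lower. Cthrc1, with -5.08 in morulas and -4.07 ± 0.50 at the 8-cell stage (adjusted p = 0.00251), had 0.68 ± 0.46 in blastulas (adjusted p = 0.295). Nab1 had 3.22 ± 0.68 (adjusted p = 0.0265) at the 8-cell stage and 5.60 ± 0.45 (adjusted p = 7.07e-05) in blastulas. Nab1, Pmaip1, Cdkn1a and Lncenc1 were called higher, and Zfp985 and Rps27rt lower, at all 3 stages.

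**Figure D4:**
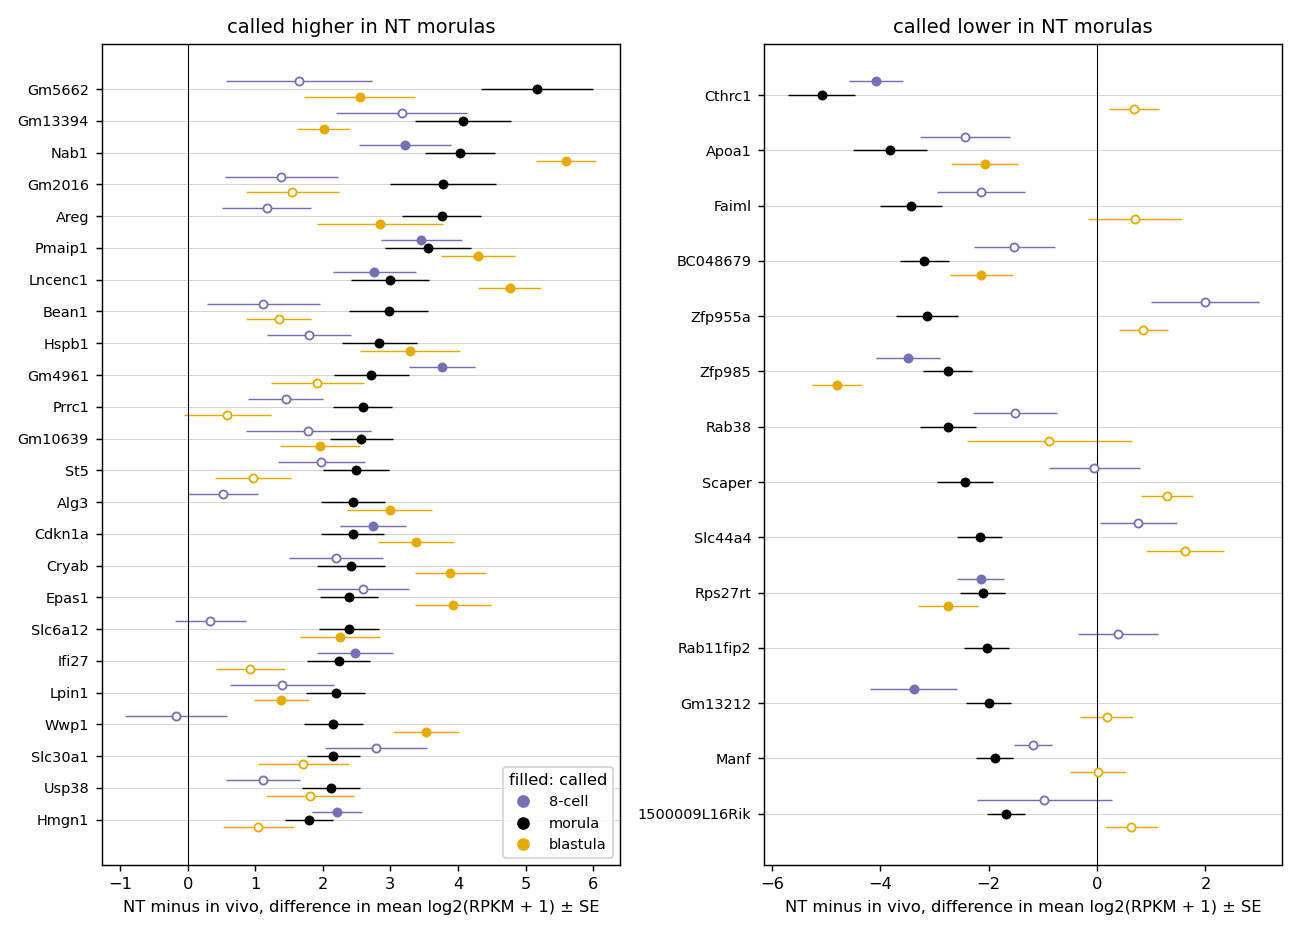
Difference between NT and in vivo embryos (horizontal axis, mean log2(RPKM + 1), bars SE from limma) at the 8-cell, morula and blastula stages for the 24 genes called higher (left) and the 14 called lower (right) in NT morulas, filled where called. On the left 23 of the 24 8-cell points and all 24 blastula points lie above 0, and on the right 11 of 14 and 5 of 13 lie under it.

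The genes called at the other stages were also read in morulas. Of the 160 genes called higher in NT 8-cell embryos, 146 (91.2%) had positive differences in morulas, where 55.0% of all tested genes did, and 64 (40%) had an unadjusted p under 0.05 in that direction, where 6.12% did. Of the 59 tested genes called lower at the 8-cell stage, 55 (93.2%) had negative differences in morulas, where 45.0% of all genes did, and 33 (55.9%) had an unadjusted p under 0.05, where 4.99% did. Their medians in morulas were 0.96 and -1.08 against 0.09 for all genes. For genes called in blastulas the shares were 65.5% (1091 of 1666, higher) and 73.1% (136 of 186, lower). Genes are not independent of one another, and no p is given for these shares.

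Ribosomal protein genes had the most one-sided differences among the large lists, with none called. Of 77 tested, 68 had negative differences, where 45.0% of all genes had. In 19 (24.7% of the 77) the difference was negative with an unadjusted p under 0.05, against 4.99% of all genes. The list median was -0.59. The median ran from -0.82 to -0.44 as single libraries were left out. It was -0.20 for NTC and -0.88 for NTM morulas against the same in vivo libraries. The share of summed RPKM on ribosomal protein genes was 2.90% to 6.24% in NT and 3.07%, 6.73% and 6.98% in vivo. No difference was found (exact permutation p = 0.333, adjusted 0.675), but with so few libraries this test could hardly have passed after adjustment. The list median was -0.73 at the 8-cell stage, with 9 of 76 called lower, and -0.87 in blastulas, with 20 of 76.

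Glycolytic genes were positive in 14 of 17 (82.4%), and 7 (41.2% of the 17) were positive with an unadjusted p under 0.05. Of all genes 55.0% and 6.12% were. The list median was 0.76 against 0.09 for all genes, and none was called. Pdhb, a subunit of pyruvate dehydrogenase that was kept in this list, was 22.7, 53.1 and 68.5 RPKM in vivo and 107, 130 and 382 RPKM (lowest, median, highest) in NT, without overlap (1.87 ± 0.48, adjusted p = 0.109). The median of the glycolysis list was 1.37 for NTC and 0.30 for NTM morulas, each against the in vivo libraries. Nuclear respiratory chain genes, the other arm of energy metabolism, were negative in 48 of 71, where 45.0% of all genes were. Their median was -0.18, and none was called.

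Lineage and pluripotency genes showed no call. Over all genes 55.0% of the differences were positive and the median was 0.09. Of 23 tested pluripotency genes 13 had negative differences (median -0.14), among them Tdgf1, a Nodal co-receptor, with -2.05 (adjusted p = 0.228), and Tet2, a 5-methylcytosine oxidase, with -1.53 (adjusted p = 0.222). Of 17 trophectoderm genes 10 were positive (median 0.04). Eomes, a trophoblast transcription factor, was -1.97 ± 0.50 (adjusted p = 0.109), as 5 of the 6 NT libraries were under 0.1 RPKM and NTM replicate 3 had 2.30 RPKM. Of 18 Hippo pathway genes, which set outer against inner cell fate, 13 were positive (median 0.30), with the kinases Lats1 at 1.51 and Stk4 at 1.40 (adjusted p = 0.222 and 0.233). Compaction and cavitation genes split evenly, 19 of 38 positive. The interval that the spread leaves is wide: over all genes the median SD of log2(RPKM + 1) within a group was 0.68 in vivo, 0.47 in NTC and 0.50 in NTM.

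**Figure D5:**
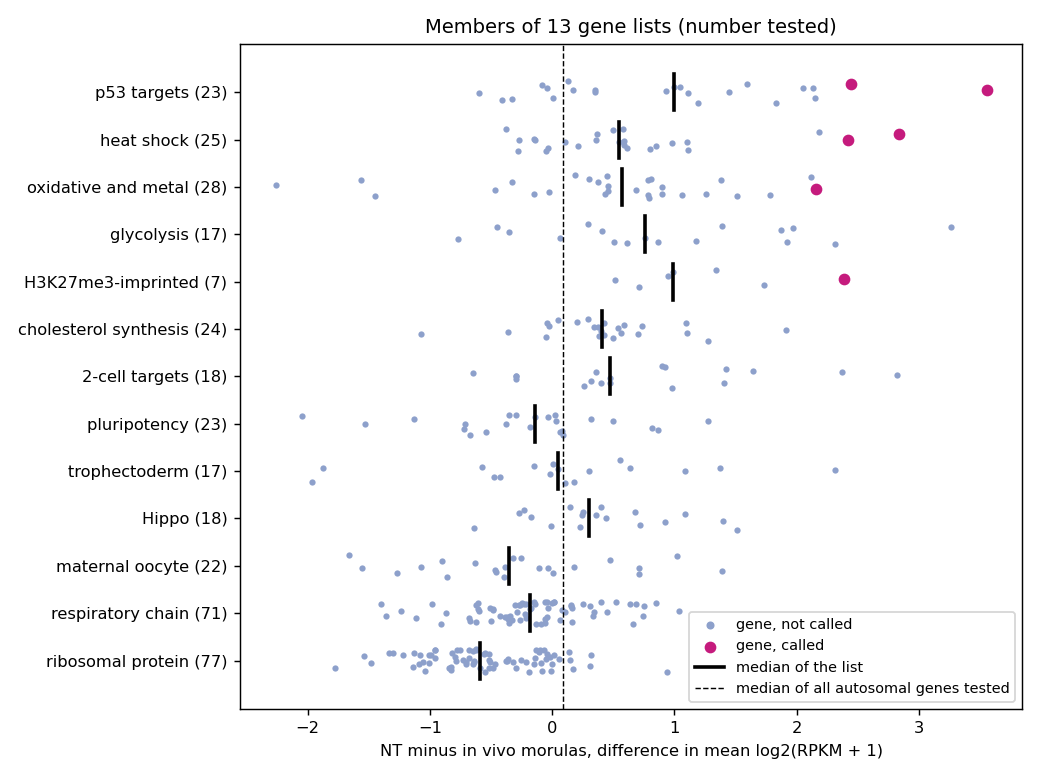
Differences between NT and in vivo morulas (horizontal axis, mean log2(RPKM + 1)) for the tested members of 13 gene lists (rows, number tested in brackets), with called genes in pink and the list median as a bar. The median bars of p53 targets (0.99) and H3K27me3-imprinted genes (0.99) lie to the right of the dashed line at 0.09, the median of all genes, and that of ribosomal protein genes (-0.59) to its left.

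NTC and NTM morulas were compared with each other to see whether pooling joined unlike groups. None of 8850 autosomal genes was called (0%), with a lowest adjusted p of 0.0541 in limma, and without NTM replicate 1 there were 2. Yet 1417 had an unadjusted p under 0.05, more than the 988 of 8892 in NT against in vivo morulas. The lack of calls therefore does not show that the NT types were alike. The median difference, NTM minus NTC, was -0.39. Areg was 20.4 RPKM in NTC and 10.7 RPKM in NTM morulas, Nab1 19.3 and 39.8, Pmaip1 20.1 and 43.6, and Apoa1 4.10 and 0.45. Each NT type alone, against the 3 in vivo morulas it shares with the other, gave 2 (NTC) and 10 (NTM) calls.

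The donor cells were read for the same genes. Of the 24 genes higher in NT morulas 12 had a mean of at least 1 RPKM in CCs, 14 in MEFs and 9 in neither. Cdkn1a was 33.8 RPKM in CCs and 24.1 RPKM in MEFs. Pmaip1 was 0.0776 and 69.5 RPKM, Hspb1 7.06 and 48.6 RPKM, and Epas1 0.161 and 0.996 RPKM. Of the 14 lower genes 7 reached a mean of 1 RPKM in CCs and 8 in MEFs. Cthrc1 had means of 12.1 and 6.01 RPKM there, above its NT mean of 2.87 and under its in vivo mean of 100.4 RPKM. Its single donor libraries overlapped the NT range of 0 to 10.1 RPKM. They ran from 0 to 36.4 RPKM in CCs and from 0.0182 to 9.03 RPKM in MEFs.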

How the data were processed

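One cDNA library per embryo, amplified after poly(A) tailing and with no molecular identifiers, was sequenced by the authors. After removal of adapters, redundant and low-quality reads they mapped with TopHat and Bowtie2 to a UCSC mouse genome, counted with HTSeq and deposited RPKM values per gene. The submitters' processing notes name Bowtie 0.12.2 and mm8. Gene positions were taken from GENCODE M21 (GRCm38) by gene ID (27013 of 27238 matched). Depth was recovered from the steps of low RPKM values, 76.7% to 80.5% of which were whole reads within 0.01. It covers counting error only, and PCR copies are not independent molecules.

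Differences were fitted with limma 3.58.1 (R 4.3.3, intensity trend) on log2(RPKM + 1), over genes with a mean of at least 0.5 RPKM, 9231 in all, X-linked ones included, with Benjamini-Hochberg adjustment over all of them. Of the 8892 autosomal genes tested in morulas, 7321 had a mean of at least 0.5 RPKM in both groups, 1110 in NT alone and 461 in vivo alone. Genes of the last 2 kinds lean towards the group that carried them through the filter. Library measures had two-sided exact permutation tests. Genes were named as the 12 largest called differences each way, by list (up to 4 called members, or the 2 of lowest p), as EGF, H3K27me3-imprinted and marker genes, and by calls at both other stages (up to 4). The members and the 28 gene lists were chosen with earlier results of these data known. Nothing says that replicates came from separate females or sessions, so p-values measure the spread between embryos. Alternatives were other pseudocounts, filters, scalings, models and leaving out each library.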

Additional observations from a re-analysis of the deposited data

Results flagged for a closer look

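In 10 of 97 named results looked at, 1 of the 6 NT libraries stood apart from the other 5 by Dixon's test, which flags about 1 in 20 by chance. Among called genes these were Zfp955a (4.66 RPKM in NTC replicate 1, the others at most 0.286), Rab38 (1.95 in NTC replicate 1, the others at most 0.107) and Rab11fip2 (0.651 in NTC replicate 3, the others at most 0.0944). Each of these lay under all in vivo values all the same. Among genes not called, NTM replicate 3 was high for Eomes (2.30 RPKM) and low for Adam17 (1.42) and Eif4e (48.8, the others at least 143). NTC replicate 2 was low for Lats1 (0.236) and Cdx2 (0, the others at least 9.51) and high for Btg4, a maternal RNA decay factor (3.21, the others at most 0.0413). Rhbdf2 was high in NTM replicate 1 (2.19).

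Scaper, lower in NT morulas, had a difference of 1.28 in blastulas, where each group is made of other embryos. The change between stages was not tested.

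On the X chromosome, outside the autosomal comparison, 7 of 284 tested genes (2.46%) were called. Rhox5 (5.80), a homeobox gene of the placenta and testis, Tceal8 (3.69) and Eda2r (3.13), a receptor of ectodysplasin, were higher in NT morulas. Lonrf3 (-3.01), Xlr4c (-2.65), Xlr5a (-1.87) and Nexmif (-1.84) were lower. The sexes of the embryos were unevenly spread over the groups, and their part in these values was not tested.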

How the results depend on the processing

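The number of autosomal genes called in morulas (38) was 3 with no filter on low values, 74 with median-ratio scaling, 70 with equal autosomal sums, 163 in 1 fit over all 20 groups, 899 at an unadjusted p, 2 for NTC and 10 for NTM alone, 12 with a replicate block, 11 of them among the 38, and 4 to 21 with 1 library left out. Of the 38 genes, 36 stayed called with median-ratio scaling, 32 in the 20-group fit and 3 without in vivo replicate 2. The share higher was 63.2%, and 77.4% at a pseudocount of 0.1, 41.1% in the 20-group fit, 54.1% with median-ratio scaling and 30% without in vivo replicate 1. None of the 38 changed direction in the alternatives run. Replicate numbers did not pair libraries (9 correlations of deviations, -0.062 to 0.036).

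Between NTM and NTC the count was 0 to 2 with 1 library left out and 0 in the other alternatives, the replicate block included. At the 8-cell stage (220) it was 373 at a pseudocount of 0.1, 19 with no filter, 145 with the replicate block and 50 to 265 with 1 library left out. For autosomal genes called, NT against in vivo blastulas (1960), it was 2993 at a pseudocount of 0.1, 1249 with no filter and 1351 to 2142 with 1 library left out. The cause of these shifts was not tested. At this depth 3 reads of a transcript of 2000 bases are 0.0571 to 0.118 RPKM, taken as the limit that a value of 0 allows.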

Other observations

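Some genes outside the calls separated NT from in vivo morulas without overlap. Ddx4, a germline RNA helicase silenced by DNA methylation in somatic cells, was at most 0.0184 RPKM in vivo and had a mean of 3.21 ± 1.52 RPKM (SD, n = 6) in NT (difference 1.98 ± 0.46, limma adjusted p = 0.0719). Of 19 tested germline genes of this kind 15 had positive differences (median 0.50), where 55.0% of all genes did (median 0.09). In 5 of the 19 the mean reached 0.5 RPKM in NT alone, which favours a positive sign. The 14 that reached it in both groups had a median of 0.28, where all such genes had 0.02. None of the 19 was called, with 2 positive and 2 negative at an unadjusted p under 0.05. Stk31, a germline kinase of the list, had -1.79 ± 0.62 (adjusted p = 0.242), with overlapping groups. Usp17lb, a gene of the 2-cell programme, had a mean of 9.14 ± 7.39 RPKM in NT against 0.187 ± 0.325 in vivo (2.82 ± 0.59, adjusted p = 0.0506), and belongs to a family of like sequences. Its list had 14 of 18 members positive and none called. Ddit4, an inhibitor of mTOR signalling, was 3.80 ± 2.56 against 0.0685 ± 0.0838 RPKM (1.97 ± 0.53, adjusted p = 0.132). Eif4ebp2, a repressor of cap-dependent translation, was 6.53 ± 2.69 against 1.02 ± 0.46 RPKM (1.85 ± 0.46, adjusted p = 0.101).

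Of the canonical imprinted genes 16 were tested, 10 were positive and none was called, with Tssc4 at 1.78 ± 0.46 (adjusted p = 0.113). Sqle, a rate-limiting enzyme of cholesterol synthesis, was 11.8 ± 7.5 RPKM in NT and 2.00 ± 0.92 RPKM in vivo (1.92 ± 0.55, limma adjusted p = 0.156). Of that pathway 19 of 24 tested genes were positive, where 55.0% of all genes were. The list median of 0.41 was 0.025 without in vivo replicate 1, where all genes had -0.13. It was 0.75 for NTC and 0.009 for NTM morulas, where all genes had 0.26 and -0.11. Maternal oocyte genes were negative in 15 of 22, where 45.0% of all genes were. Among them was Npm2, a histone chaperone of the egg, at -1.56 ± 0.59 (limma adjusted p = 0.305). Dusp1, a MAP kinase phosphatase, had a difference of 2.13 ± 0.71 and the growth regulator Myc one of -1.82 ± 0.58, neither of them called (adjusted p = 0.231 and 0.221).

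Of the remaining lists, 20 apoptosis genes had 1 call, Pmaip1, and a median of -0.01. Of all genes 0.27% were called higher, and the median was 0.09. No call was made in the others, whose medians were 0.13 for 14 primitive endoderm, 0.03 for 54 spliceosome, -0.07 for 41 translation initiation, 0.10 for 53 cell cycle, 0.01 for 47 chromatin barrier and -0.01 for 18 MAP kinase genes. The cumulus, fibroblast and oviduct lists had 2, 3 and 3 genes tested, with medians of 0.82, -0.06 and 0.78.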
